A study of Homo sapiens with 15 samples.

Results

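Reads of 5 small noncoding RNAs were followed across 15 libraries of an ovarian cancer cell line: RMRP, RPPH1, RN7SL1, SNORD3A and SCARNA2. The set was named as 7 abundant RNAs that normally carry no poly(A) tail, and it was put together because SNORD3A and RMRP were among the genes with the largest drops when Tranilast was given with cisplatin. Of the 7 names, 5 matched a row among the 47634 genes of the count tables, and RN7SK and RN7SL2 are not analysed here. All 5 passed the filter on low counts. RMRP, SNORD3A and SCARNA2 did so only through treated libraries where they were high. Their untreated libraries held 6 to 13, 4 to 10 and 7 to 15 counts, in that order, too few to pass alone. Because the set was chosen on the cisplatin and Tranilast libraries, values of the 5 RNAs in comparisons that hold either condition are given as a description with no test, and the 5 RNAs are tested only between the other groups. Genes outside the set are tested in all comparisons, and 1 fit of all 15 libraries supplied the estimate of the spread.

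These RNAs are products of housekeeping machines rather than messengers. RMRP is the RNA of RNase MRP, which cuts precursor ribosomal RNA, and RPPH1 is the RNA of RNase P, which trims the 5′ end of precursor transfer RNA. RN7SL1 encodes the RNA of the signal recognition particle, which brings ribosomes that make secreted proteins to the endoplasmic reticulum. SNORD3A encodes U3, a box C/D small nucleolar RNA needed for the first cuts of precursor ribosomal RNA, and SCARNA2 is a Cajal body RNA that guides modification of spliceosomal RNA. RMRP, RPPH1 and RN7SL1 are transcribed by RNA polymerase III, and mature copies of all of them end without a long poly(A) tail, so that a protocol primed on poly(A) is expected to read them rarely.

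The cells were IGROV-CP20, a cisplatin-resistant human ovarian cancer line. There were 5 groups of 3 libraries: untreated cells, cells kept for 24 h in cisplatin at 50 µM, and cells given that cisplatin treatment following 24 h in Amphotericin B, Telmisartan or Tranilast, each at 10 µM. No group received a drug without cisplatin. RNA 3′ ends were sequenced after oligo(dT) priming of total RNA. The 3 libraries of each group are labelled biological replicates, and p-values rest on the spread between them.

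The sequences of 4 of the RNAs are shown because the priming step makes runs of A in the RNA relevant to what can be read. Each is the 5′ to 3′ sense strand of the RNA in GENCODE 29, in lower case, with the longest runs of A in capitals. RPPH1 is printed from base 34 to its end and SCARNA2 from base 121, and RMRP and SNORD3A whole. None was read from the samples.
RMRP: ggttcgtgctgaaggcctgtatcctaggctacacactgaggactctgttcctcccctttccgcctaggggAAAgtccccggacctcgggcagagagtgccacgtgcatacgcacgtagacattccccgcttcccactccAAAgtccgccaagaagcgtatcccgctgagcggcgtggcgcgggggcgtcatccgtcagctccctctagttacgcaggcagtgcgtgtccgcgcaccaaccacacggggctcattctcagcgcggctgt
RPPH1: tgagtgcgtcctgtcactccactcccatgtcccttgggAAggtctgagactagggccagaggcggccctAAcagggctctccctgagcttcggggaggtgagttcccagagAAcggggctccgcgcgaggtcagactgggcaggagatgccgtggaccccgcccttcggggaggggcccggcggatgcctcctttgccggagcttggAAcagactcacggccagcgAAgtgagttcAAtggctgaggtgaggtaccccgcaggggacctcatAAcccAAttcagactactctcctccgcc
SNORD3A: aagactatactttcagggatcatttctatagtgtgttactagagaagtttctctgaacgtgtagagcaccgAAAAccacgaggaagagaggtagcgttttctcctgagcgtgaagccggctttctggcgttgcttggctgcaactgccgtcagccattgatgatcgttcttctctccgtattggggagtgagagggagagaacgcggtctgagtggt
SCARNA2: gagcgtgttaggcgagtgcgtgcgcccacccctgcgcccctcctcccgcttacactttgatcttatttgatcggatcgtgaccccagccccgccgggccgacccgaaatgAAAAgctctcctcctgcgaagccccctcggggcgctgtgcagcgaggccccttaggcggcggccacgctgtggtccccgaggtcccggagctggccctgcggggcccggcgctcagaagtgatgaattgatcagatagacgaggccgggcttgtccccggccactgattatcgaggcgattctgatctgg
RMRP, of 268 bases, held no run longer than 3 A, and RPPH1, of 333 bases, none longer than 2. The longest run was 4 A in SNORD3A (217 bases) and SCARNA2 (420 bases). None of the 4 therefore held AAAAAA on the sense strand, a motif present in 15.6% of the 1278 small RNA transcripts of 200 to 450 bases in the same annotation, where the median longest run was 4 A. A match or its absence is a property of these letters alone.

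The rows behind the names were not all drawn on the RNA itself. In GENCODE 29 on GRCh38, the RMRP row (ENSG00000269900) is chr9:35657751-35658018 on the minus strand, and the SNORD3A row (ENSG00000263934) is chr17:19188016-19188714 on the plus strand, longer than U3 itself. The row named RPPH1 (ENSG00000259001) is there a transcript called AL355075.4, at chr14:20343048-20343685 on the minus strand, which contains the RPPH1 RNA and overlaps PARP2 on the opposite strand. Its sequence runs 27 bases past the RPPH1 RNA and ends in 18 A, as its last 80 bases show, again with the longest run in capitals.
AL355075.4: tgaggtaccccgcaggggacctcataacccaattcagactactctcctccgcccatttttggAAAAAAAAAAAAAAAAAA
The row named SCARNA2 (ENSG00000270066) is called AL356488.2 there, at chr1:109100193-109100619 on the plus strand, and covers the SCARNA2 RNA. The identifier named RN7SL1 (ENSG00000258486) has no entry in GENCODE 29. The RN7SL1 RNA of that release is at chr14:49586580-49586878 on the plus strand, within the RPS29 gene on the opposite strand. Use of the strand in counting is not given in the sources used here, so reads of RN7SL1 and RPS29, or of RPPH1 and PARP2, may not be separable. The files were made on hg19, so these positions describe the annotation used here and not the windows that were counted. RN7SL1 also has 679 named relatives in GENCODE 29, of which 2 had a row and 1 reached 10 counts, with at most 60 counts in a library, so its own value is uncertain.

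The 5 RNAs were minor components of these libraries, whatever their abundance in cells. Together they took between 0.00722% and 0.0943% of the counts of a library, with totals of 1510620 to 3517041 counts. RN7SL1 supplied between 60.2% and 87.1% of those reads, and each of the other four no more than 18.6%. Values below are counts relative to library size (CPM) scaled by TMM factors, which put the libraries on a common footing, and groups are written as mean ± SD with n = 3. CPM is a share of what was captured, so more of an RNA per cell and less of the other RNA cannot be told apart, nor can fewer cells of a kind from less RNA per cell.

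RMRP was low in untreated cells and with Tranilast, and high in every library with Amphotericin B. Its levels were 4.12, 2.86 and 1.52 CPM in untreated cells, 94.1, 11.7 and 7.50 CPM with cisplatin alone, and 3.70, 2.71 and 3.82 CPM with Tranilast. With Telmisartan they were 82.2, 95.6 and 4.93 CPM, and with Amphotericin B 148, 72.6 and 191 CPM. One cisplatin library and the first 2 Telmisartan libraries thus stood within the Amphotericin B range, whereas the rest of those groups lay nearer to untreated cells. The order of means was Amphotericin B (137 ± 60.03 CPM), Telmisartan (60.9 ± 48.9 CPM), cisplatin (37.8 ± 48.8 CPM), Tranilast (3.41 ± 0.608 CPM) and untreated (2.83 ± 1.30 CPM). Neighbours in this order overlapped, except cisplatin and Tranilast.

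RPPH1, the RNase P counterpart, was graded more evenly. It stood at 9.19, 6.01 and 7.09 CPM in untreated cells, 36.8, 17.1 and 12.2 CPM with cisplatin, and 4.44, 5.42 and 8.53 CPM with Tranilast. The Telmisartan libraries held 45.2, 66.5 and 21.9 CPM and the Amphotericin B libraries 98.3, 75.8 and 84.5 CPM. The Amphotericin B libraries were above all 12 others, and the Tranilast and untreated libraries were mixed with each other below the rest. Means ran from 86.2 ± 11.4 CPM with Amphotericin B through 44.5 ± 22.3 CPM with Telmisartan and 22.02 ± 12.98 CPM with cisplatin to 7.43 ± 1.62 CPM in untreated cells and 6.13 ± 2.13 CPM with Tranilast. The Telmisartan and cisplatin libraries overlapped.

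RN7SL1 had the deepest counts of the 5, from 194 to 1384 reads in a library. It stood at 122, 59.8 and 49.1 CPM in untreated cells and at 117, 78.3 and 92.7 CPM with Tranilast, and these 2 groups overlapped. Cisplatin libraries held 740, 358 and 206 CPM, Telmisartan libraries 556, 760 and 260 CPM, and Amphotericin B libraries 622, 550 and 626 CPM. Means were 599 ± 43.1 CPM with Amphotericin B, 525 ± 252 CPM with Telmisartan, 435 ± 275 CPM with cisplatin, 96.1 ± 19.7 CPM with Tranilast and 76.9 ± 39.2 CPM in untreated cells. The first 3 conditions overlapped one another and all lay above the last 2.

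SNORD3A, the U3 gene, had the fewest reads, with 3 to 10 counts in each untreated or Tranilast library, so that its low end rests on single reads. Untreated libraries held 2.22, 1.14 and 2.53 CPM and Tranilast libraries 1.11, 1.90 and 1.12 CPM, which overlapped. Levels were 88.0, 21.5 and 7.50 CPM with cisplatin, 32.0, 47.2 and 3.56 CPM with Telmisartan, and 38.9, 37.5 and 50.4 CPM with Amphotericin B. The spread was wide with cisplatin (39.0 ± 43.0 CPM) and Telmisartan (27.6 ± 22.2 CPM) and narrower with Amphotericin B (42.3 ± 7.08 CPM). These 3 conditions overlapped, and every library in them was above every untreated (1.96 ± 0.728 CPM) and Tranilast (1.38 ± 0.451 CPM) library. The other U3 genes with a row, SNORD3B-1, SNORD3B-2 and SNORD3C, never exceeded 5 counts.

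SCARNA2, the Cajal body RNA, showed the same broad division. It stood at 3.17, 4.29 and 1.77 CPM in untreated cells, 219, 86.8 and 21.3 CPM with cisplatin, and 9.25, 2.71 and 5.39 CPM with Tranilast. With Telmisartan it stood at 101, 176 and 8.21 CPM, and with Amphotericin B at 125, 86.9 and 80.8 CPM. The lowest Telmisartan library fell inside the Tranilast range, the only overlap between those 2 groups among the 5 RNAs. Means were 109 ± 101 CPM with cisplatin, 97.6 ± 24.1 CPM with Amphotericin B, 94.99 ± 84.2 CPM with Telmisartan, 5.78 ± 3.29 CPM with Tranilast and 3.08 ± 1.26 CPM in untreated cells, where the first 3 overlapped and so did the last 2.

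**Figure D1:**
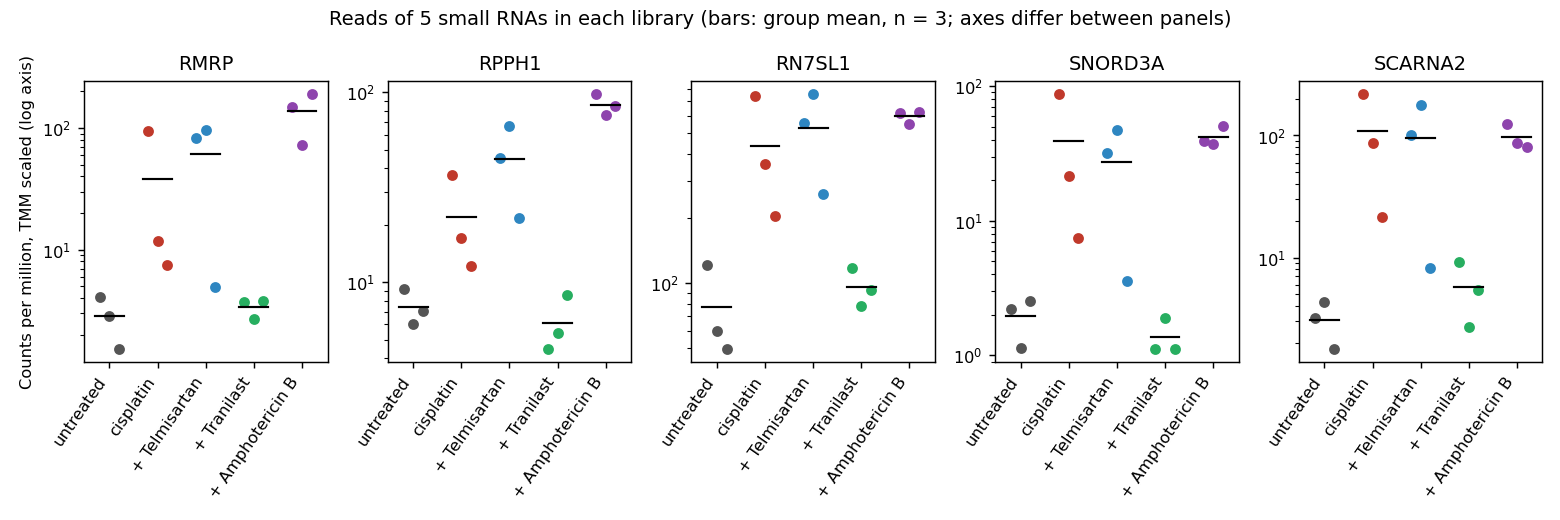
CPM of RMRP, RPPH1, RN7SL1, SNORD3A and SCARNA2 (log axis, a separate scale in each panel) in the 3 libraries of each group, with a bar at the mean; a plus sign marks a drug given with cisplatin. Points are in replicate order: the first cisplatin library is the highest of its group and the third Telmisartan library the lowest of its group for all 5 RNAs, while untreated and Tranilast libraries overlap in every panel.

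In the cisplatin and Telmisartan groups, individual libraries moved together across the 5 RNAs. Cisplatin replicate 1 was the highest of its group for all 5 RNAs and replicate 3 the lowest for all 5. Telmisartan replicate 2 was the highest for all 5 and replicate 3 the lowest for all 5. In the other groups the RNAs peaked in different libraries. Replicates 1, 2 and 3 were the highest for 2, 0 and 3 RNAs with Amphotericin B. The same counts were 2, 1 and 2 with Tranilast and 3, 1 and 1 in untreated cells. The highest library exceeded the lowest by 12.5-fold for RMRP and 11.7-fold for SNORD3A with cisplatin, and by 19.4-fold and 13.3-fold with Telmisartan. With Amphotericin B the same ratios were 2.63-fold and 1.34-fold. Cisplatin replicate 1 and Telmisartan replicate 3 stood apart over all genes as well, since the chi-square per degree of freedom against other libraries of their group was 26.4 or more, against 2.24 to 8.07 for all other pairs.

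The first question that could be tested was whether the RNAs differed from untreated cells when cisplatin was combined with Telmisartan or Amphotericin B. All 5 were higher in both comparisons. RMRP, SNORD3A and SCARNA2 had entered through treated libraries where they were high, so the filter favored this direction for them. Their p-values against untreated cells, here and with Telmisartan, are therefore a description and not support for a rise. RPPH1 and RN7SL1 did not depend on this. With Amphotericin B, RMRP rose 48.9-fold (log2 fold change 5.61 ± 0.979 SE, edgeR adjusted p = 0.00037) and SCARNA2 31.7-fold (4.99 ± 0.933, adjusted p = 0.000613). SNORD3A rose 20.9-fold (4.39 ± 0.870, adjusted p = 0.000925), RPPH1 11.6-fold (3.54 ± 0.410, adjusted p = 2.4e-05) and RN7SL1 7.81-fold (2.97 ± 0.440, adjusted p = 0.000117). The 3 Amphotericin B libraries lay above the 3 untreated libraries for each RNA. Over all 11113 genes tested, 17.7% were called higher in this comparison and 23.4% had all 3 libraries above the untreated ones.

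With Telmisartan the 5 RNAs were also called higher by edgeR's quasi-likelihood test, in the direction that the filter favored for RMRP, SNORD3A and SCARNA2. SCARNA2 was 30.2-fold higher (4.92 ± 0.927, adjusted p = 0.000931), RMRP 21.1-fold (4.40 ± 0.975, adjusted p = 0.00311) and SNORD3A 13.0-fold (3.70 ± 0.875, adjusted p = 0.00473). RN7SL1 was 6.83-fold higher (2.77 ± 0.437, adjusted p = 0.000245) and RPPH1 5.87-fold (2.55 ± 0.407, adjusted p = 0.000257). No library overlapped with untreated cells for any of the 5, although the third Telmisartan library came close for RMRP and SNORD3A. The share of all genes called higher was 12.8%, and 18.4% did not overlap in that direction. By limma-voom, RMRP (adjusted p = 0.0797) and SNORD3A (adjusted p = 0.104) missed the threshold and the other 3 passed. Both comparisons use the same untreated libraries and are not independent of each other.

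Amphotericin B and Telmisartan were then compared directly, both with cisplatin, and none of the 5 RNAs passed the threshold. RPPH1 was nearest: its 3 Amphotericin B libraries were above the 3 Telmisartan libraries, by 1.98-fold (0.98 ± 0.362, edgeR adjusted p = 0.16), with a 95% interval of 1.21-fold to 3.23-fold before adjustment, and 9.87% of all genes were separated in this direction. RMRP was 2.32-fold higher (1.21 ± 0.745, adjusted p = 0.351, interval 0.844 to 6.38), and its libraries overlapped. SNORD3A differed by 1.61-fold (interval 0.633 to 4.08), RN7SL1 by 1.14-fold (interval 0.658 to 1.99) and SCARNA2 by 1.05-fold (interval 0.400 to 2.75), so differences of up to about these bounds cannot be told from 0. At an unadjusted p under 0.05, 1 of the 5 passed, RPPH1, and 0 passed without Telmisartan replicate 3 or without Amphotericin B replicate 1. In the other direction, 2 passed, RMRP and RPPH1, without cisplatin replicate 1 and by limma-voom. edgeR called 0.0% of all genes in this comparison, with 20.5% under an unadjusted p of 0.05, while the edgeR likelihood ratio test called 460 genes, DESeq2 184 and limma-voom 2, and 0 of the 5 RNAs were among them. The 0.0% depended on cisplatin replicate 1, a library of neither group but of the same fit. Without it edgeR called 663 of 11332 genes. Of the 5 RNAs 0 passed there, with RPPH1 at an edgeR adjusted p of 0.0503. Without the filter on low counts, edgeR called RMRP (adjusted p = 0.00152) and RPPH1 (adjusted p = 0.0319), among 856 of 24733 genes. That setting also moved RMRP with Amphotericin B against untreated cells from an edgeR adjusted p of 0.00037 to 2.92e-59. Its p-values are therefore not on the same footing as those of the main fit.

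**Figure D2:**
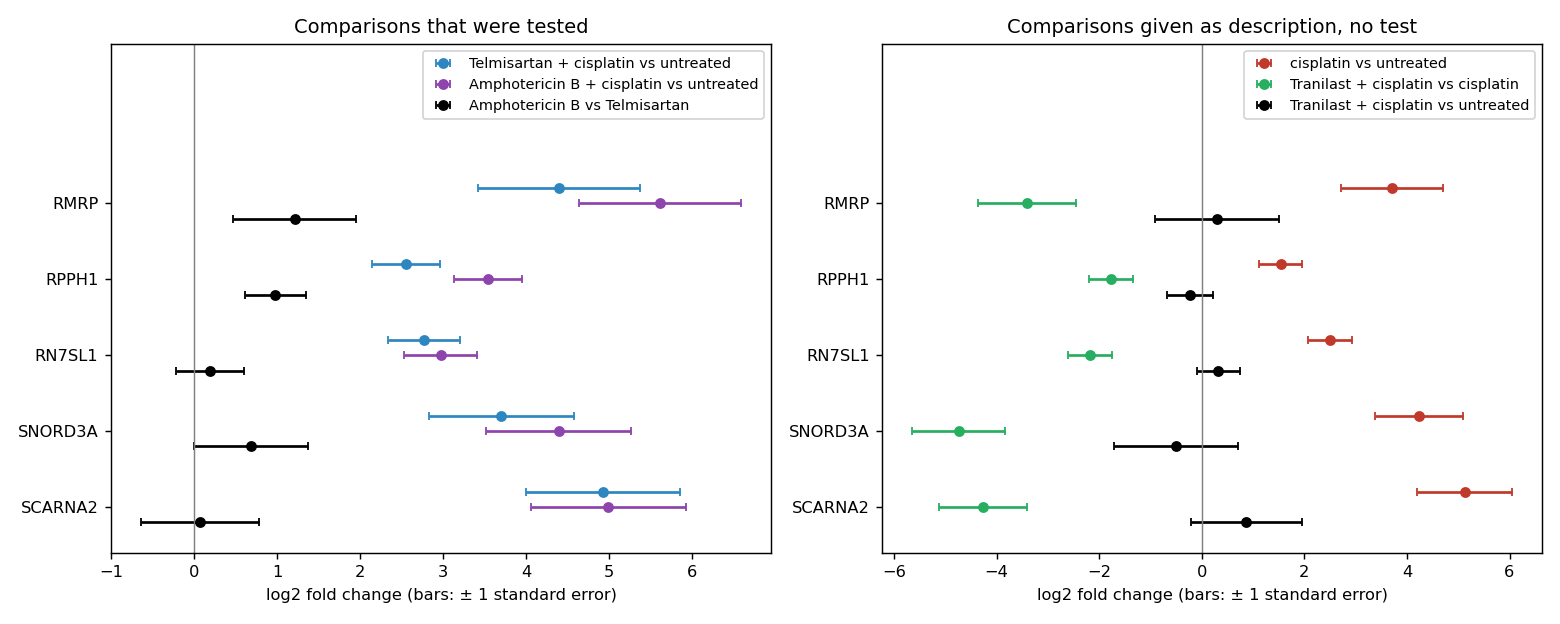
Log2 fold changes of the 5 RNAs with bars of 1 standard error. Left, the tested comparisons: Telmisartan and Amphotericin B against untreated cells lie between 2.55 and 5.61, and Amphotericin B against Telmisartan between 0.07 and 1.21. Right, comparisons given as a description: cisplatin against untreated cells lies between 1.54 and 5.13, Tranilast against cisplatin between -4.74 and -1.77, and Tranilast against untreated cells between -0.50 and 0.87.

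The values that chose the set are given for completeness and carry no test. With Tranilast, SNORD3A was 26.6-fold lower than with cisplatin alone (log2 fold change -4.74 ± 0.907 SE), the second lowest of 11113 genes, and SCARNA2 19.2-fold lower (-4.27 ± 0.861), the third lowest. RMRP was 10.6-fold lower (-3.41 ± 0.961) and ranked 7 from the bottom, RN7SL1 4.52-fold lower (-2.18 ± 0.427, rank 82) and RPPH1 3.41-fold lower (-1.77 ± 0.429, rank 168). For all 5 the Tranilast libraries lay below every cisplatin library, as they did for 18.9% of all genes. Without cisplatin replicate 1 the log2 fold changes were -3.30 for SNORD3A, -3.24 for SCARNA2, -1.45 for RMRP, -1.54 for RN7SL1 and -1.18 for RPPH1, so that library set a large part of their size.

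Cisplatin alone stood above untreated cells for all 5 RNAs, without overlap, which held for 24.0% of all genes in that direction. The log2 fold changes were 5.13 ± 0.927 for SCARNA2, 4.24 ± 0.861 for SNORD3A, 3.71 ± 0.992 for RMRP, 2.50 ± 0.433 for RN7SL1 and 1.54 ± 0.423 for RPPH1. Without cisplatin replicate 1 they were 4.10, 2.79, 1.75, 1.86 and 0.96 in the same order. Tranilast with cisplatin overlapped with untreated cells for every RNA, at 0.87 ± 1.07 for SCARNA2, -0.50 ± 1.21 for SNORD3A, 0.30 ± 1.21 for RMRP, 0.32 ± 0.417 for RN7SL1 and -0.23 ± 0.450 for RPPH1. With so few reads at the low end, the SE of SNORD3A, RMRP and SCARNA2 leaves room for differences of several fold.

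The other comparisons that hold cisplatin or Tranilast libraries are likewise descriptions. Against cisplatin alone, Amphotericin B was higher for RPPH1 without overlap, at 2.0 ± 0.384 on the log2 scale, a separation seen for 10.9% of all genes. RMRP was 1.90 ± 0.772 higher and overlapped, because cisplatin replicate 1 lay within the Amphotericin B range. RN7SL1 (0.47 ± 0.408), SNORD3A (0.15 ± 0.671) and SCARNA2 (-0.15 ± 0.707) overlapped with cisplatin. These values rest on single libraries. Without cisplatin replicate 1 they were 3.89 for RMRP, 2.61 for RPPH1, 1.13 for RN7SL1, 1.62 for SNORD3A and 0.92 for SCARNA2, and without cisplatin replicate 3 RN7SL1 was at 0.12, SNORD3A at -0.37 and SCARNA2 at -0.65. The sign for SNORD3A and SCARNA2 therefore turned with the library left out.

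Telmisartan overlapped with cisplatin for all 5, from -0.53 ± 0.675 for SNORD3A to 1.01 ± 0.384 for RPPH1, and cisplatin replicate 1 weighed on these values as well. Without it all 5 were positive, at 2.67 for RMRP, 1.61 for RPPH1, 0.94 for RN7SL1, 0.92 for SNORD3A and 0.84 for SCARNA2. Without Telmisartan replicate 2 they ran from -1.21 for SNORD3A to 0.61 for RPPH1. The direction between these 2 conditions was thus not settled for RN7SL1, SNORD3A and SCARNA2. Tranilast lay below Amphotericin B without overlap for all 5, as for 23.3% of all genes, with log2 fold changes from -5.31 ± 0.952 for RMRP to -2.64 ± 0.434 for RN7SL1. It lay below Telmisartan without overlap for all but SCARNA2, as for 10.9% of all genes, with log2 fold changes from -4.20 ± 0.923 for SNORD3A to -2.45 ± 0.430 for RN7SL1. These contrasts share their libraries with those above.

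Mitochondrial ribosomal RNA, which carries only short A tails, moved with the 5 RNAs. MT-RNR1 and MT-RNR2 together took 1.79% to 2.20% of the counts in untreated libraries and 2.10% to 2.53% with Tranilast. Their share was 13.7%, 5.61% and 3.41% in the 3 cisplatin libraries and 10.8%, 12.9% and 3.61% in the Telmisartan libraries, and 12.3% to 14.8% with Amphotericin B. Cisplatin replicate 3 and Telmisartan replicate 3, the lowest of their groups for all 5 RNAs, also had the smallest mitochondrial shares of their groups. Cisplatin replicate 2 lay between replicates 1 and 3 in this share and for each of the 5 RNAs. Its SCARNA2 value, 86.8 CPM, was within the Amphotericin B range. Against untreated cells, MT-RNR1 rose with Amphotericin B (4.13 ± 0.676, edgeR adjusted p = 0.000235) and with Telmisartan (3.23 ± 0.648, adjusted p = 0.00148). Its part, or that of RNA quality, in the values of the 5 RNAs was not tested.

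**Figure D3:**
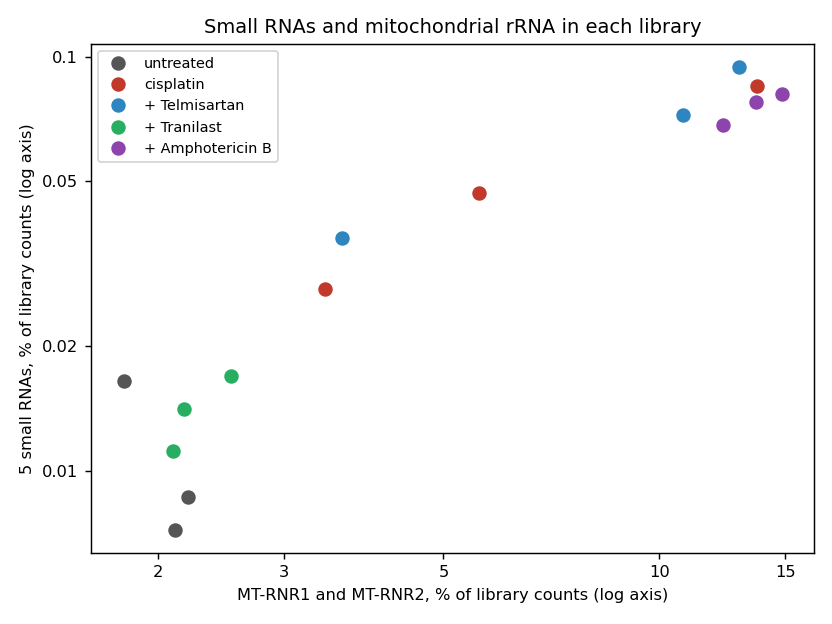
Share of library counts taken by the 5 RNAs together (vertical, log axis) against the share taken by MT-RNR1 and MT-RNR2 (horizontal, log axis), 1 point for each of the 15 libraries, colored by group. Untreated and Tranilast libraries sit at 1.79% to 2.53% mitochondrial share, and the Amphotericin B libraries at 12.3% to 14.8%. Cisplatin and Telmisartan libraries spread between these ranges.

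The genes with the most similar profile over the 15 libraries were found by the root mean square (RMS) difference of centred log2 CPM. For RMRP they were the mitochondrial transfer RNA genes MT-TL1 (RMS difference 0.455) and MT-TF (0.504) and the mitochondrial ribosomal RNA gene MT-RNR1 (0.605). For SNORD3A they were MT-TF (0.505), MT-RNR1 (0.505) and LINC00324 (0.638), a long noncoding RNA. For SCARNA2 they were MT-TF (0.593), SNORD3A (0.701) and MT-RNR1 (0.788). Mitochondrially encoded genes took 7 of the 15 places, all through MT-TF, MT-RNR1 and MT-TL1, and the 15 places held 11 distinct genes. Such genes made up 0.234% of the genes tested. The places are not independent of each other, because the same neighbours recur for RNAs with similar profiles.

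RPPH1 and RN7SL1 had other neighbours. Nearest to RPPH1 were MTRNR2L12 (0.462), a nuclear gene that resembles MT-RNR2 and may take its reads, GADD45B (0.469), a stress-induced gene, and SNHG9 (0.481), a small nucleolar RNA host gene. Nearest to RN7SL1 were PHLDA2 (0.391), MTRNR2L2 (0.428), a further MT-RNR2-like gene, and MYL6 (0.448), a myosin light chain. Among the 5 RNAs themselves, RPPH1 and RN7SL1 were closest to each other (0.578) and RPPH1 and SCARNA2 the farthest apart (1.25). The profiles share libraries and depth, and the distances are a description.

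Other RNAs without a regular poly(A) tail were scarce in the tables. Of 38 further named ones, only SNORD3B-1, SNORD3B-2, SNORD3C, RNU4ATAC, VTRNA2-1, TERC and SCARNA10 had a row under their name. The others were not measured under those names, so their levels are unknown. Of those with a row, 2 passed the filter, RNU4ATAC, the U4atac RNA of the minor spliceosome, and TERC, the telomerase RNA. RNU4ATAC was at 517, 481 and 395 CPM in untreated libraries and 2251, 2163 and 2798 CPM with Amphotericin B, a rise of 2.37 ± 0.461 on the log2 scale (edgeR adjusted p = 0.000803). It held 2897, 774 and 559 CPM with cisplatin, 1571, 1157 and 558 CPM with Telmisartan and 361, 375 and 336 CPM with Tranilast. Against untreated cells it rose with cisplatin (1.60 ± 0.450, edgeR adjusted p = 0.00825) and with Telmisartan (1.24 ± 0.446, adjusted p = 0.0446), and it fell with Tranilast against cisplatin (-1.98 ± 0.455, adjusted p = 0.00663). Cisplatin replicate 1 was again the highest and Telmisartan replicate 3 the lowest of their groups.

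TERC had lower counts. Its mean was 10.4 ± 2.003 CPM in untreated cells, 20.0 ± 15.6 CPM with cisplatin, 19.1 ± 12.2 CPM with Telmisartan, 13.7 ± 2.73 CPM with Tranilast and 27.4 ± 7.77 CPM with Amphotericin B. It passed the test with Amphotericin B against untreated cells (1.40 ± 0.508, edgeR adjusted p = 0.0352) but not under scaling by library size alone, and it did not pass with Telmisartan (0.80 ± 0.505, adjusted p = 0.242) or with Tranilast against cisplatin (-0.52 ± 0.493, adjusted p = 0.467).

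Rows annotated as small RNA genes were also few. Of 26 such rows, 5 passed the filter: SNORD3A and RNU4ATAC, described above, and SNORA31, SNORD91A and SCARNA22, which were in no list and were chosen after the rows were counted. Each of the last 3 lies within a protein-coding gene on the same strand in GENCODE 29, SNORA31 in TPT1, SNORD91A in TSR1 and SCARNA22 in NSD2, so reads of the host transcript cannot be told apart from their own.

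SCARNA22, which like SCARNA2 belongs to the Cajal body RNAs, was higher than in untreated cells with Tranilast too. It held 40.9, 37.8 and 26.8 CPM in untreated libraries, 125, 75.1 and 76.6 CPM with cisplatin, 88.8, 84.0 and 86.8 CPM with Telmisartan, 85.1, 76.2 and 59.2 CPM with Tranilast and 145, 135 and 123 CPM with Amphotericin B. All 4 treated groups lay above untreated cells, with Amphotericin B at 1.94 ± 0.225 (edgeR adjusted p = 2.4e-05) and Tranilast at 1.06 ± 0.220 (adjusted p = 0.0056) on the log2 scale. Tranilast against cisplatin did not pass the test (-0.32 ± 0.215, edgeR adjusted p = 0.287).

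SNORA31 and SNORD91A were read rarely. SNORA31 had 2 to 23 counts in a library, with 1.94 ± 0.819 CPM in untreated cells, 5.996 ± 5.08 CPM with cisplatin, 3.69 ± 2.33 CPM with Telmisartan, 0.802 ± 0.295 CPM with Tranilast and 11.9 ± 4.67 CPM with Amphotericin B. It was higher with Amphotericin B than in untreated cells (2.62 ± 0.612, edgeR adjusted p = 0.00279) and lower with Tranilast than with cisplatin (-2.75 ± 0.717, adjusted p = 0.0124). SNORD91A had 0 counts in every untreated and Tranilast library and 19, 2 and 2 counts with cisplatin. Amphotericin B libraries had 8, 1 and 10 counts of it and Telmisartan libraries 12, 11 and 0.

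The genes of proteins that bind, make or trim the 5 RNAs, or that act with RN7SK, give polyadenylated transcripts and so a different kind of readout. Of 89 such genes, 7 of which belong to the RN7SK list, 88 were tested. Against untreated cells, 28 were called higher and 15 lower with Amphotericin B, 48.9% in all, where 40.9% of all genes were called in either direction. With cisplatin 33 were higher and 15 lower, 54.5% against 44.7% of all genes, and with Telmisartan 24 were higher and 10 lower, 38.6% against 28.7%. For Tranilast against cisplatin 7 were higher and 22 lower, 33.0% against 22.2%. The directions depend on scaling: by library size alone the splits were 12 higher and 34 lower with Amphotericin B, 21 and 17 with cisplatin, 9 and 11 with Telmisartan, and 13 and 7 for Tranilast against cisplatin.

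Of the 8 genes of the U3 and box C/D particle, 5 rose and 0 fell with Amphotericin B against untreated cells, with a median log2 fold change of 0.88 against -0.19 over all genes. Leading by adjusted p were RRP9, a U3-specific protein (1.75 ± 0.299, edgeR adjusted p = 0.00033), and FBL, the methyltransferase fibrillarin (1.27 ± 0.236, adjusted p = 0.000582). With Tranilast against cisplatin 6 fell and 0 rose, with a median of -0.79 against 0.02, among them RRP9 (-1.31 ± 0.289, edgeR adjusted p = 0.00544) and IMP4 (-0.98 ± 0.217, adjusted p = 0.00569). Calls made up 62.5% and 75.0% of the list in these 2 comparisons, where 40.9% and 22.2% of all genes were called. By library size alone the counts became 3 higher and 1 lower, and 1 higher and 2 lower. Against untreated cells, 7 were higher and 1 lower with cisplatin, where 44.7% of all genes were called. With Telmisartan 5 were higher and 1 lower, where 28.7% of all genes were called. NOP58, which sits in the same particle as FBL, was lower with cisplatin (-0.57 ± 0.155, edgeR adjusted p = 0.00711) where the other 7 were higher.

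Of 10 tested proteins of RNase P and RNase MRP, which RPPH1 and RMRP share, 3 rose and 0 fell with Amphotericin B against untreated cells, with a median of 0.22. Calls thus made up 30.0% of the list, below the 40.9% of all genes. By library size alone 1 was higher and 2 lower. POP5 rose by 1.12 ± 0.193 (edgeR adjusted p = 0.000333) and POP7 by 0.57 ± 0.185 (adjusted p = 0.0193), and under scaling by library size alone POP7 was not called. With Tranilast against cisplatin only POP7 passed (-0.91 ± 0.184, edgeR adjusted p = 0.00364), a call also lost under library size alone, and POP5 did not (-0.34 ± 0.192, adjusted p = 0.204).

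Of the 8 proteins and receptor subunits of the signal recognition particle, which pair with RN7SL1, 1 was higher and 1 lower with Amphotericin B against untreated cells, and 1 and 4 by library size alone. SRP14, which binds the Alu part of the RNA, rose by 1.26 ± 0.336 (edgeR adjusted p = 0.00675), and SRP72 was lower (-0.45 ± 0.167, adjusted p = 0.0385). With Tranilast against cisplatin 2 fell, SRP14 (-1.33 ± 0.336, edgeR adjusted p = 0.0106) and the receptor subunit SRPRB (-0.73 ± 0.166, adjusted p = 0.00639), the latter not called by library size alone, where 2 were higher and 1 lower. Calls made up 25.0% of the list in each comparison, against 40.9% and 22.2% of all genes. The medians, -0.22 and -0.06, were close to those of all genes, -0.19 and 0.02. Cisplatin alone against untreated cells gave 2 higher and 3 lower, 62.5% where 44.7% of all genes were called.

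The machinery of RNA polymerase III split in both directions. Of 18 subunits, 8 rose and 6 fell with Amphotericin B against untreated cells, and 1 rose and 7 fell with Tranilast against cisplatin. Calls made up 77.8% and 44.4% of these subunits, against 40.9% and 22.2% of all genes. POLR2H, a subunit shared by all 3 nuclear polymerases, rose (1.33 ± 0.179, edgeR adjusted p = 6.43e-05), whereas POLR3B, the second largest subunit, fell (-2.34 ± 0.336, adjusted p = 9.51e-05). With Tranilast their signs were opposite, at -1.01 ± 0.173 (edgeR adjusted p = 0.00192) and 2.17 ± 0.334 (adjusted p = 0.00136). Of 20 promoter factors, 6 rose and 3 fell with Amphotericin B, led by SNAPC4 (1.30 ± 0.230, edgeR adjusted p = 0.000415) and GTF3A, the 5S RNA gene factor (1.04 ± 0.192, adjusted p = 0.000549). With Tranilast 2 rose and 4 fell, including POU2F1 (0.96 ± 0.239, edgeR adjusted p = 0.0101) and SNAPC4 (-0.97 ± 0.219, adjusted p = 0.00619). Promoter factors were called at 45.0% with Amphotericin B and 30.0% with Tranilast, against the same shares of all genes as above. By library size alone, subunits were 4 higher and 9 lower and promoter factors 2 higher and 9 lower with Amphotericin B, and 1 higher and 3 lower, and 4 higher and 0 lower, with Tranilast. Subunits were already 8 higher and 2 lower with cisplatin alone against untreated cells, 55.6% against 44.7% of all genes. By library size alone that split was 5 to 2. With Amphotericin B against cisplatin alone, 0 subunits were higher and 1 lower, 5.56%, where edgeR called 1469 of 11113 genes.

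Factors that trim or tail RNA 3′ ends were called about as often as genes in general. Of 17 exosome and trimming genes, 4 rose and 3 fell with Amphotericin B against untreated cells, 41.2% of the list where 40.9% of all genes were called, among them the core exosome genes EXOSC9 (0.85 ± 0.162, edgeR adjusted p = 0.00071) and EXOSC4 (1.02 ± 0.223, adjusted p = 0.0018), neither called by library size alone, where 0 were higher and 6 lower. With Tranilast against cisplatin 3 rose and 1 fell, 23.5% against 22.2% of all genes, led by the deadenylase PARN (1.17 ± 0.240, edgeR adjusted p = 0.00393) and the exosome helicase MTREX (0.78 ± 0.175, adjusted p = 0.00574). Against untreated cells, cisplatin gave lower PARN (-1.94 ± 0.237, edgeR adjusted p = 1.37e-05) and MTREX (-1.12 ± 0.175, adjusted p = 9.61e-05). In that comparison 5 of the 17 genes were higher and 3 lower, 47.1% where 44.7% of all genes were called. The median of the list was 0.2 against -0.01 over all genes. By library size alone 2 were higher and 4 lower. Of the 7 genes of the 7SK particle and P-TEFb, whose RNA is not analysed here, HEXIM1, an inhibitor of P-TEFb, rose with Amphotericin B plus cisplatin against untreated cells (1.95 ± 0.225, edgeR adjusted p = 2.4e-05) and fell with Tranilast against cisplatin (-1.56 ± 0.220, adjusted p = 0.00114). LARP7, which protects 7SK RNA, did the reverse (-0.68 ± 0.183, edgeR adjusted p = 0.0071, and 0.81 ± 0.182, adjusted p = 0.00608). Of this list, CCNT2 was the only other call in these 2 comparisons, lower with Amphotericin B (-1.02 ± 0.325, edgeR adjusted p = 0.018). Calls made up 42.9% of the list with Amphotericin B and 28.6% with Tranilast, against 40.9% and 22.2% of all genes. Cisplatin alone against untreated cells already gave 2 higher and 1 lower, 42.9% where 44.7% of all genes were called. Amphotericin B against cisplatin alone gave 0 higher and 1 lower, 14.3%, where edgeR called 1469 of 11113 genes.

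**Figure D4:**
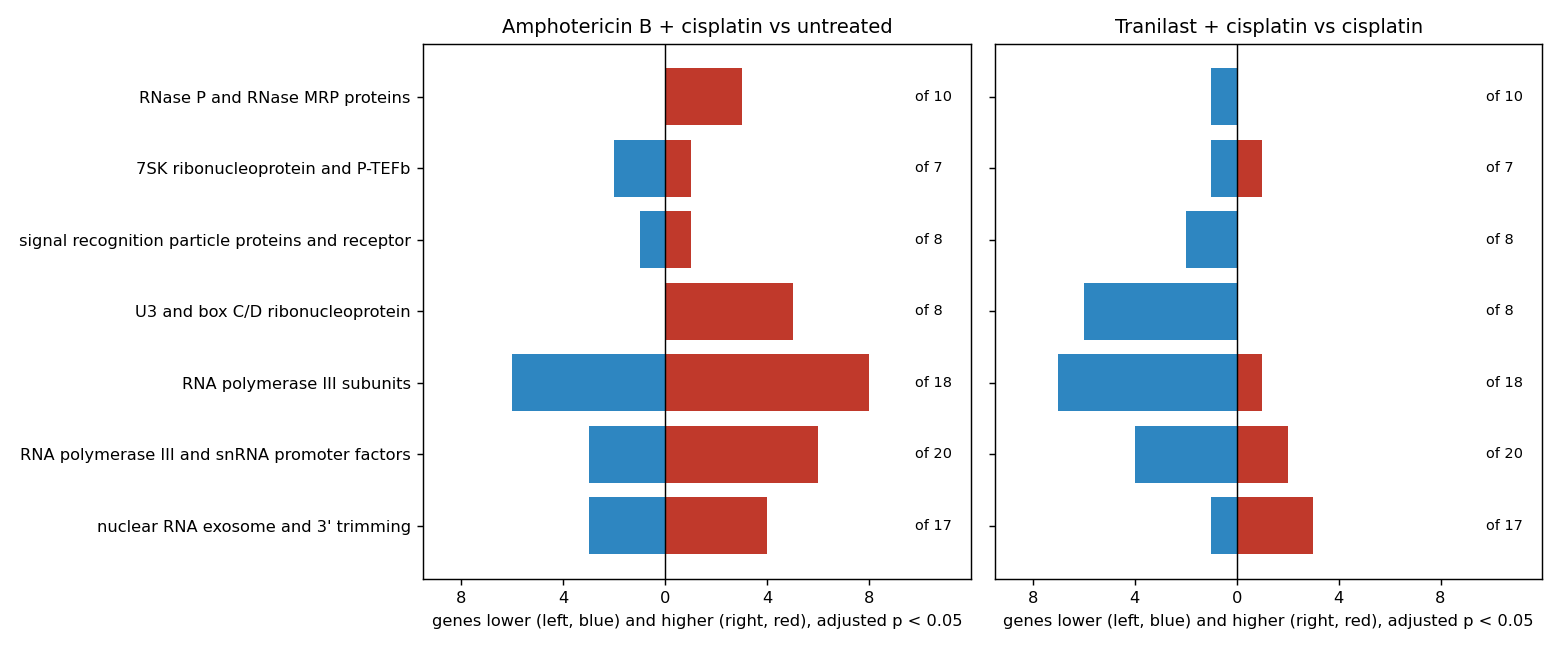
Number of genes of each partner list called lower (left, blue) and higher (right, red) at an adjusted p under 0.05, with the number tested at the right, for Amphotericin B against untreated cells and Tranilast against cisplatin. The U3 and box C/D list has 5 higher and 0 lower in the first and 0 higher and 6 lower in the second, and by library size alone 3 higher and 1 lower, and 1 higher and 2 lower; the RNA polymerase III subunits split 8 higher to 6 lower and 1 higher to 7 lower, and by library size alone 4 to 9 and 1 to 3.

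As a check of the cells, the epithelial genes KRT18, KRT8 and EPCAM were detected in every library, at group means of 88.6 to 174 CPM for KRT18, whereas PAX8 and KRT7 had at most 1 count in a library. Against untreated cells, EPCAM fell and CDH1 and KRT18 rose with Amphotericin B (-1.38 ± 0.227, 1.92 ± 0.406 and 0.98 ± 0.198 on the log2 scale, edgeR adjusted p = 0.000245, 0.00138 and 0.00107), and these 3 were also the calls among the 5 epithelial markers tested with cisplatin and with Telmisartan. Of 7 markers of other cell types, CD3E and VWF were listed at 0 throughout and 3 were tested. PTPRC, a leukocyte marker, stood at 69.6 ± 5.42 CPM in untreated cells and at 6.45 to 16.5 CPM in the means of the other groups. COL1A1, a collagen of fibroblasts, stood at 7.17 ± 1.23 CPM in untreated cells and at 13.4 to 22.7 CPM in the means of the other groups. It rose with cisplatin (1.55 ± 0.356, edgeR adjusted p = 0.00219), Telmisartan (1.52 ± 0.353, adjusted p = 0.00422) and Tranilast (1.63 ± 0.346, adjusted p = 0.00654), while the value with Amphotericin B was 0.90 ± 0.393 (adjusted p = 0.0752). COL3A1, a further collagen, stood at 12.02 ± 1.10 CPM in untreated cells and fell with cisplatin (-1.60 ± 0.413, edgeR adjusted p = 0.00483). The part of these markers in the values of the 5 RNAs was not tested.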

How the data were processed

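QuantSeq 3′ end libraries were made from 100 ng of total RNA and read as 75 bp single ends. Per the labels, 15 samples formed 5 groups of 3. The deposited files hold raw counts per Ensembl gene, whole numbers that the authors made without normalization. The submitters' processing notes name STAR 2.3.0, HTSeq and hg19, and the annotation and strand setting are not given in the sources used here. Names came from reference tables of gene identifiers, then GENCODE 29, then, for RMRP, RPPH1, RN7SL1 and SCARNA2, the pairs of identifier and symbol in a supplementary sheet of the study, whose other columns hold the authors' own comparisons and were not used.

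The members and the gene lists were chosen with earlier results of these data known. Genes were filtered with filterByExpr (11113 kept of 47634), scaled by TMM and tested with edgeR 4.0.16 (R 4.3.3), quasi-likelihood, in 1 fit of all 15 libraries, adjusted by Benjamini-Hochberg over all genes of a comparison and called at 0.05. Intervals of fold changes are 95% normal intervals from the SE. Log2 CPM used a prior count of 2. The genes named are the members, the 2 of each partner list with the smallest adjusted p with Amphotericin B against untreated cells and with Tranilast against cisplatin, the 3 nearest profiles for each member, and every other listed nonpolyadenylated RNA that passed the filter. CCNT2, NOP58, PARN and MTREX with cisplatin alone, the cell markers, and SNORA31, SNORD91A and SCARNA22 were added after their values were seen. Alternatives used DESeq2 1.42.0 and limma 3.58.1. On simulated counts of 10747 genes for Amphotericin B against untreated cells, the edgeR step recovered 185 of 194 changed genes with 8 false calls. The simulation gave all genes the same spread, changed few genes in 1 group by 1 size, and held no outlying library. Its rates therefore check the code and do not carry over to these data. Totals were 1510620 to 3517041 counts, so 3 counts stand for 8.53e-05% to 0.000199% of a library, a floor that covers counting error only. No 2 libraries of a group agreed within sampling noise. The sequence of 1 member is not reported here.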

Additional observations from a re-analysis of the deposited data

How the results depend on the processing

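Of 237 alternative counts, 214 stayed within 1.5 times the reported one. The 5 RNAs called with Amphotericin B against untreated cells were 5 under every alternative. With Telmisartan they were 5 under every alternative except limma-voom, which called 3. For RMRP, SNORD3A and SCARNA2 the filter on low counts favored these calls, so their count is a description. Against Telmisartan the 0 called with Amphotericin B became 2 without the filter on low counts, where edgeR called 856 of 24733 genes. Leaving out 1 library at a time gave 5 to 5, 5 to 5 and 0 to 0 calls in these comparisons. Replicate numbers shared across groups did not pair the libraries: in 0 of 10 comparisons was every correlation of same-numbered deviations over 0.1. They ran from 0.0349 to 0.0964 for Telmisartan and untreated cells, from -0.0487 to -0.0053 for Amphotericin B and untreated cells, and most widely, from -0.1739 to 0.6314, for Telmisartan and cisplatin. The fit with a replicate block called 5, 5 and 0 of the 5 RNAs and changed no count of partner genes by over 1.5 times.

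For partner genes, an adjusted p under 0.01 left 25 with Amphotericin B, 17 with Telmisartan, 16 for Tranilast against cisplatin and 7 for Amphotericin B against cisplatin, where 14 passed at 0.05. Library size alone gave 20 with Telmisartan, the 6 libraries alone gave 1 for Amphotericin B against cisplatin, and DESeq2 gave 1 for Telmisartan against cisplatin, where edgeR gave 0 and 13 passed unadjusted. Leaving out 1 library gave 28 to 46 with Amphotericin B, 19 to 44 with Telmisartan, 40 to 50 with cisplatin, 19 to 34 for Tranilast against cisplatin, 5 to 30 for Amphotericin B against cisplatin and 0 to 8 for Telmisartan against cisplatin. Changes of over 1.5 times came without Amphotericin B replicate 1 (28), without any untreated replicate or Telmisartan replicate 1 or 2 (19 to 22), without Tranilast replicate 2 or 3 (19 each), and, against cisplatin, without cisplatin replicate 1 (30 and 8), cisplatin replicate 2 (5) or 3 (7), or Amphotericin B replicate 1 or 3 (7 each). Low counts of SNORD3A, RMRP and SCARNA2 in untreated and Tranilast libraries and the spread between cisplatin and between Telmisartan libraries limit precision. Scaling by library size alone moved the median of all genes by -0.57 with Amphotericin B and -0.24 with Telmisartan against untreated cells and by 0.44 for Tranilast against cisplatin. With a prior count of 0.5 in place of 2, the difference of mean log2 CPM of SNORD3A between Tranilast and cisplatin was -4.0 in place of -3.59. The causes of these changes were not tested.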
